A study of Mus musculus with 7 samples.

Results

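Hormad1, Hormad2, Trip13, Atr, Brca1, and Brca2, which place HORMA-domain proteins on meiotic chromosomes or act in the response to broken DNA, were followed from the indifferent gonad to the first follicles. The 6 genes were picked by name out of 31053 in the deposited matrices, and each had a single row. Single-cell RNA had been measured in 7 libraries, 1 for each age. The embryonic ages were E11.5, E12.5, and E14.5 in mid-gestation and E16.5 with E18.5 later, and the postnatal ages were P1 and P5. Each library pooled gonads (E11.5) or ovaries (all later ages) of untreated wild-type C57BL/6J mice, and the E11.5 label does not give the sex. Dissociation in trypsin was longer at the older ages. Since each age was 1 library, age and library cannot be told apart, cells were not replicates, and no test between groups was possible. All intervals are exact 95% intervals that cover counting error only.

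Cells with at least 200 detected genes were kept, 50823 of 52542. A cell was called germ with at least 3 unique molecular identifiers (UMIs) of Dazl plus Ddx4, genes of the germ line, and somatic with 0 UMIs of either gene. Somatic cells with at least 2 UMIs of Mki67, a gene of dividing cells, were called cycling and the others non-cycling. This gave 4760 germ, 5172 cycling somatic, and 37786 non-cycling somatic cells, and the 3105 cells with 1 or 2 UMIs of Dazl plus Ddx4 were set aside. Germ cells numbered 9, 321, 2669, 1016, 439, 244, and 62 in the order of the ages, so the E11.5 germ values rest on very few cells. Levels are given in CPM, a gene's pooled UMIs in a class for every 1000000 UMIs of that class. Values listed without an age run in order of age from E11.5 to P5.

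In meiotic prophase, homologous chromosomes are cut by programmed double-strand breaks, and HORMAD1 and HORMAD2 coat the chromosome axes that have not yet paired along their length. TRIP13 is an ATPase that strips HORMA-domain proteins from axes once synapsis is reached, and it also remodels the HORMA-domain protein MAD2 in the spindle checkpoint of dividing cells. ATR, a checkpoint kinase of stalled replication forks, and BRCA1 gather on unsynapsed axes in meiosis, whereas BRCA2 acts at breaks in repair by strand exchange. Oocytes that keep unsynapsed or unrepaired chromosomes are removed around birth.

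Several library facts bear on what follows. Median depth lay between 6349 and 11060 UMIs per cell. Of the barcodes of kept cells, E16.5 shared between 0 and 3 with any other library, whereas the 15 pairs among the other libraries shared between 20 and 131. The sources name a single chemistry for all samples, and the part of this difference in the E16.5 values was not tested. Mki67 itself was at 1356 CPM in the cycling somatic cells of E16.5 and at 167 to 585 CPM in those of the other libraries. The classes were checked with genes outside the gates. Sycp3, a synaptonemal complex gene, was at 22.3 to 2037 CPM in germ cells and at most 17.8 CPM in either somatic class. Top2a, a gene of dividing cells, was at 337 to 1183 CPM in cycling and 22.5 to 262 CPM in non-cycling somatic cells. The highest non-cycling value was at E11.5, where the cycling level was 574 CPM, so the somatic classes were least separated there. By the clusters named below, mesenchymal cells made up 963 of 1272 cycling somatic cells at E11.5. Erythroid cells made up 150 of 246 at E18.5 and 758 of 1119 at P1, so the makeup of this class differed between ages.

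Hormad1 (chr3:95559677-95587671 of GRCm38, plus strand) was found almost entirely in germ cells. Its germ level was 26.7, 49.5, 149, 520, 320, 92.8, and 17.7 CPM. The level thus climbed through meiotic entry to E16.5 and then fell at each later age. Intervals separated neighbors in the order of levels, except for E12.5 over E11.5 (1.85-fold, 0.843 to 5.08) and E11.5 over P5 (1.51-fold, 0.532 to 3.47). In cycling somatic cells it was at 0.129, 0.0915, 0.805, 2.61, 1.2, 0.435, and 0 CPM in the same order, the last being 0 UMIs of 6153478, which allows up to 0.488 CPM. Non-cycling somatic cells held 0.0146 to 5.3 CPM. Germ cells exceeded cycling somatic cells by 185-fold at E14.5 (51.2 to 1528), 199-fold at E16.5 (148 to 274), and 267-fold at E18.5 (114 to 824). At P5 the germ level was at least 36.4-fold higher. These sizes rest on few somatic UMIs. With at least 4 Mki67 UMIs for a cycling cell at E14.5, or cells drawn down to 2000 UMIs at E18.5, no somatic UMI was left and the germ level was at least 23.5-fold and 56.3-fold higher. In both somatic classes the highest level was also at E16.5.

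Hormad2 (chr11:4345814-4441105, minus strand) was likewise a germ cell transcript, from fewer UMIs. Its germ level was 4.45, 13.5, 32.6, 49.9, 20.9, 10.7, and 5.52 CPM, the first from a single UMI. The order of ages differed from that of Hormad1, since E18.5 was below E14.5 for Hormad2 (1.56-fold, 1.29 to 1.91) and above it for Hormad1 (2.15-fold, 2.04 to 2.27). Cycling somatic cells held 0.0726 to 1.21 CPM and non-cycling somatic cells 0.139 to 1.5 CPM. The germ level was 21-fold the cycling somatic level at E12.5 (9.84 to 53.7), 27-fold at E14.5 (9.23 to 131), and 64.7-fold at E16.5 (37.7 to 122).

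**Figure D1:**
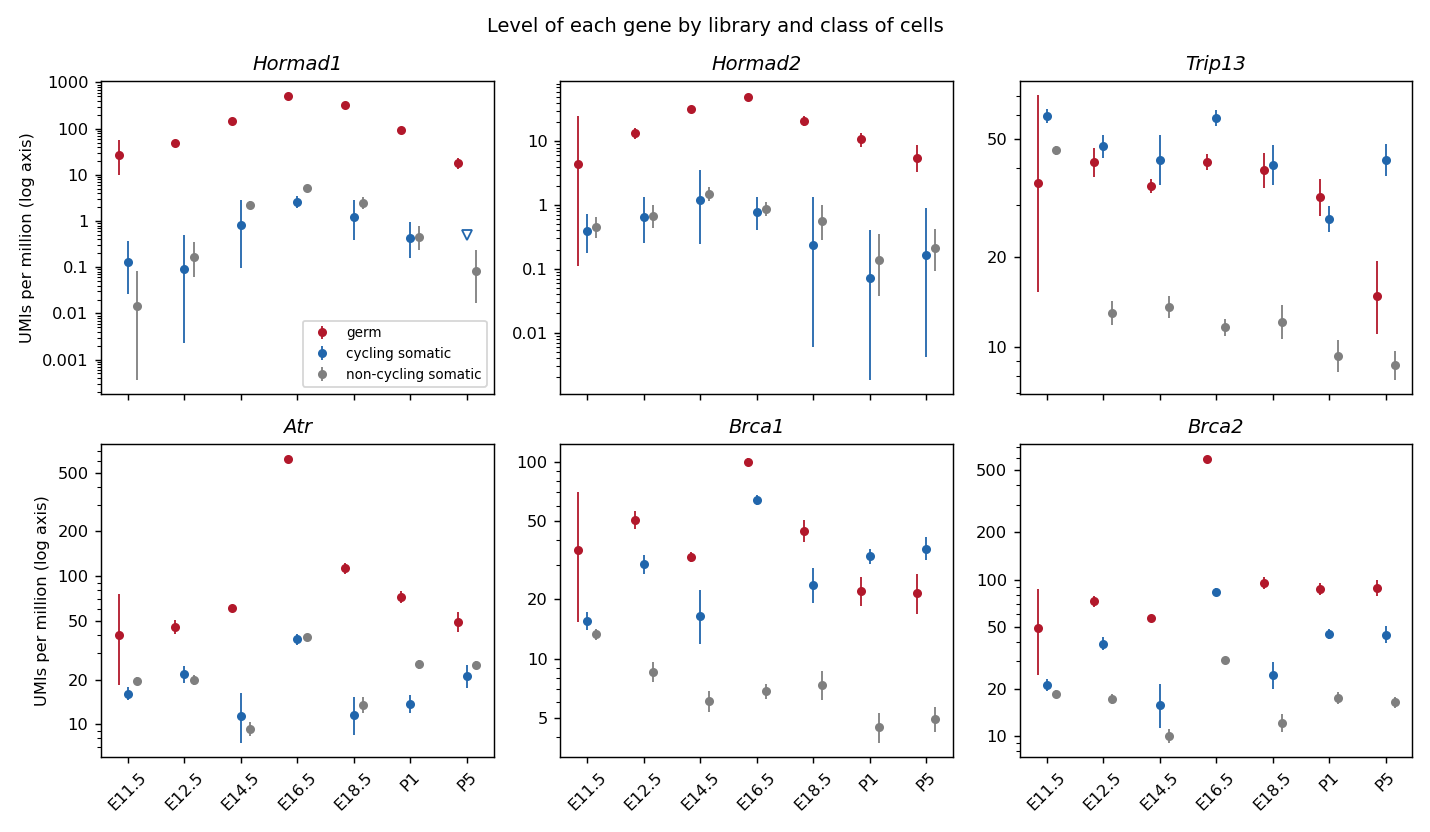
Level of the 6 genes in CPM on log axes that differ between panels, by library, in germ (red), cycling somatic (blue), and non-cycling somatic cells (gray). Bars are exact Poisson 95% intervals, and the open triangle marks the limit of 0.488 CPM for 0 Hormad1 UMIs at P5. Hormad1 and Hormad2 stood apart in germ cells from E12.5, Atr and Brca2 peaked in germ cells at E16.5 (615 and 586 CPM), and Trip13 overlapped between germ and cycling somatic cells at several ages.

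The share of cells with a UMI was also set against a cell type that should lack the gene. A Hormad1 UMI was found in 76.8% of germ cells at E14.5, 97.5% at E16.5, and 90% at E18.5. Mesenchymal cells had one in 1.08, 1.58, and 0.922% at these ages. Median depths were 12775, 25097.5, and 12107 UMIs in germ cells and 5252.5, 10730, and 6403 UMIs in mesenchymal cells. With every cell drawn down to 2000 UMIs the germ shares were 26.8, 63.2, and 49.9%, and the mesenchymal share at E16.5 was 0.355%. For Hormad2 the E16.5 shares were 59.2% of germ and 0.617% of mesenchymal cells, or 10.5 and 0.158% at the common depth. The mesenchymal shares give the background, and germ cells lay far above it for both genes.

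The few somatic Hormad1 UMIs were set against those of Sycp3, another gene of meiotic germ cells. Hormad1 made up 24.5% of the Hormad1 and Sycp3 UMIs of germ cells at E16.5, 22.8% (17.1 to 29.4) in cycling and 26% (23.8 to 28.3) in non-cycling somatic cells. At E14.5 the germ proportion was 26.9% and the non-cycling one 24.5% (20.2 to 29.1), and at P1 they were 4.36 and 3.12% (1.67 to 5.28). The germ proportion lay inside the non-cycling interval at these 3 ages. It lay above that interval at E11.5 (54.5 against 3.7%, 0.0937 to 19), E12.5 (50.7 against 19.4%, 7.45 to 37.5), and E18.5 (17.4 against 12.1%, 8.99 to 15.7), and inside it at P5 (1.48 against 1.97%, 0.409 to 5.66). Many E16.5 cells, of germ and somatic types, also clustered apart from other ages. E16.5 gave 3629 of 3663 cells of a supporting cluster and 2185 of 2196 of a mesenchymal one. All 872 cells of a germ cluster were from E16.5. Gm42418 was among the leading genes of these supporting and mesenchymal clusters. E11.5 likewise gave 6072 of 6112 cells of another mesenchymal cluster. The part of this separation in the E16.5 levels was not tested. The E16.5 library gave 1318 of the 1491 cells of a cluster with a median depth of 982 UMIs, led by Gm42418, AY036118, and mt-Nd6. Sycp3, Hormad1, Tex15, and Sycp1 were also among its leading genes. Over all its cells, of every class, Hormad1 was at 290 CPM (266 to 315) and Atr at 196 CPM (176 to 216). When cells of germ-like and unnamed clusters were left out, an alternative chosen after seeing the data, the E16.5 ratio of germ to cycling somatic Hormad1 rose from 199 to 334.

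The 250 bases before the start site are shown for both HORMA-domain genes because both were germ cell transcripts highest at E16.5 (RefSeq on GRCm38.p6, chr3:95559427-95559676 plus strand and chr11:4441083-4441332 minus strand). Capitals mark the E-box CACGTG, searched on both strands together with TTTNNCGC (E2F), CCAAT, and TGACGT (the core of the cyclic AMP response element, CRE). The E-box was present in 6.02%, the E2F motif in 4.28%, CCAAT in 33.8%, and the CRE core in 6.47% of 32851 windows of this length.
Hormad1: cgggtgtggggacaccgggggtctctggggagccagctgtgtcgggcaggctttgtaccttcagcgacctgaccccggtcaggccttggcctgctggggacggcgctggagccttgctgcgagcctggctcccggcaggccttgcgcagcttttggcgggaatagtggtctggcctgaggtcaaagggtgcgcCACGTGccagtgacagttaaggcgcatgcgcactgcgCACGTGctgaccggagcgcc
Hormad2: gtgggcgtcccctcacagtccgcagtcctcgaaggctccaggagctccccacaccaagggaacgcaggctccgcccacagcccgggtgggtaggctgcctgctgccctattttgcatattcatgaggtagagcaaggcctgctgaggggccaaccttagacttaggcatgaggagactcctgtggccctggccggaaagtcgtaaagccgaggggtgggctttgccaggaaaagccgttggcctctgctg
The Hormad1 window held 2 E-boxes, at bases 57 to 52 and 20 to 15 before the start, and the Hormad2 window held none of the 4 motifs. The Hormad1 window had 19 CpG dinucleotides and 68% GC, the Hormad2 window 10 CpG dinucleotides and 62.4% GC. These matches describe letters only, and whether a factor bound there was not measured.

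Trip13 (chr13:73911347-73937784, minus strand), unlike the HORMA-domain genes on which its product acts, was not raised in germ cells over cycling somatic cells. Its germ level stayed between 31.9 and 41.8 CPM from E11.5 to P1 (35.6, 41.8, 34.7, 41.8, 39.4, and 31.9) and was 14.8 CPM at P5. Small steps between neighboring ages had intervals that excluded 1. The ratio was 0.831 for E14.5 over E12.5 (0.733 to 0.944) and 1.2 for E16.5 over E14.5 (1.11 to 1.31). It was 0.81 for P1 over E18.5 (0.664 to 0.988). The intervals included 1 for E12.5 over E11.5 (1.17, 0.588 to 2.74) and E18.5 over E16.5 (0.942, 0.81 to 1.09). The largest step was the fall from P1 to P5, with P1 2.15-fold above P5 (1.57 to 2.99). Cycling somatic cells held 59.9, 47.2, 42.7, 58.9, 41, 27, and 42.6 CPM. Germ cells were thus at or below cycling somatic cells at all ages but P1. There 758 of the 1119 cycling somatic cells were erythroid, and cycling mesenchymal cells held 58.8 CPM (48.7 to 70.4). The part of this makeup was not tested. The ratio of germ to cycling somatic level was 0.885 at E12.5 (0.766 to 1.02), 0.711 at E16.5 (0.651 to 0.776), and 1.18 at P1 (0.989 to 1.41). At P5 it was 0.348 (0.253 to 0.471), the only ratio of a member below 0.5. Non-cycling somatic cells held 45.8 CPM at E11.5 and 8.7 to 13.6 CPM afterward. From E12.5 on, cycling exceeded non-cycling somatic cells by 2.88- to 5.05-fold, against 1.31-fold at E11.5 (1.23 to 1.39). Germ cells were 2.55- to 3.59-fold above non-cycling somatic cells from E12.5 to P1.

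Atr (chr9:95857597-95951781, plus strand) was higher in germ cells than in both somatic classes of every library, from 9 germ UMIs at E11.5. At that age the ratio to non-cycling somatic cells was 2.05, with an interval that included 1 (0.934 to 3.9). The ratio to cycling somatic cells there was 2.5, and 1.31 with germ-like clusters as the germ class. The germ level of Atr was 40.1, 45.6, 60.8, 615, 113, 72.1, and 48.8 CPM. The E16.5 level was 5.46-fold the next highest (5.04 to 5.93). In cycling somatic cells the level was 16, 21.7, 11.3, 37.3, 11.502, 13.7, and 21.1 CPM. The ratio of germ to cycling somatic cells was 2.1 at E12.5 (1.77 to 2.49), 5.39 at E14.5 (3.72 to 8.13), 16.48 at E16.5 (15.2 to 17.9), then 9.79 at E18.5 (7.29 to 13.4), 5.25 at P1 (4.42 to 6.27), and 2.31 at P5 (1.83 to 2.93). It thus rose to E16.5 and fell at each later age. Erythroid cells made up 150 of 246 cycling somatic cells at E18.5 and 758 of 1119 at P1. Cycling mesenchymal cells of P1 held 24.7 CPM, above the 13.7 CPM of the whole class. The part of this makeup in the ratios was not tested. Over all somatic cells the ratio of cycling to non-cycling cells lay between 0.54 (0.458 to 0.635, at P1) and 1.22 (0.797 to 1.78, at E14.5). In mesenchymal cells of P1, Atr was at 24.7 CPM (18.3 to 32.6) in cycling and 24.9 CPM (22.1 to 28) in non-cycling cells. Within types, pooled over libraries, Atr was higher in cycling immune cells (24.8 CPM, 20.2 to 30, against 12.2, 9.46 to 15.4) and cycling erythroid cells (11.6 CPM, 10.3 to 13.1, against 7.6, 6.4 to 8.97), while in mesenchymal cells it was at 25.2 (23.6 to 26.8) and 23.6 CPM (22.8 to 24.5).

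Brca2 (chr5:150522630-150570329, plus strand) was highest in germ cells at E16.5 and was also raised in cycling somatic cells. Its germ level was 49, 72.4, 57, 586, 94.6, 86.7, and 88.4 CPM. After E16.5 its level did not separate by age, since E18.5, P5, and P1 followed each other within 1.07-fold (0.928 to 1.24) and 1.02-fold (0.882 to 1.18). In cycling somatic cells it was at 21.1, 38.8, 15.7, 83.5, 24.4, 44.9, and 44.5 CPM. The germ level was 1.87-fold that level at E12.5 (1.64 to 2.12), 3.63-fold at E14.5 (2.65 to 5.12), 7.02-fold at E16.5 (6.65 to 7.42), 3.87-fold at E18.5 (3.12 to 4.83), 1.93-fold at P1 (1.72 to 2.17), and 1.98-fold at P5 (1.68 to 2.34). From E12.5 on, the cycling somatic level was 1.57- to 2.75-fold the non-cycling one.

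Brca1 (chr11:101488764-101551955, minus strand) reached the highest ratio of cycling to non-cycling somatic level among the members, and its order between germ and cycling somatic cells changed with age. Its germ level was 35.6, 50.8, 32.9, 100.4, 44.5, 22, and 21.5 CPM. Cycling somatic cells held 15.5, 30.2, 16.504, 64.1, 23.7, 33.1, and 36.2 CPM, so that germ cells were above them up to E18.5 and below them at P1 and P5. The ratio was 2.29 at E11.5, from 8 germ UMIs and with an interval that included 1 (0.981 to 4.56). It was 1.68 at E12.5 (1.45 to 1.96), 1.99 at E14.5 (1.46 to 2.79), 1.57 at E16.5 (1.46 to 1.68), and 1.87 at E18.5 (1.48 to 2.39). After birth it was 0.666 at P1 (0.545 to 0.81) and 0.593 at P5 (0.45 to 0.775). With only germ cells of at least 2 Mki67 UMIs, it was 0.855 at P1 (0.621 to 1.15) and 0.676 at P5 (0.489 to 0.92). The P1 interval then included 1. From E12.5 on, cycling somatic cells exceeded non-cycling ones by 2.73- to 9.43-fold, the highest value at E16.5 (8.47 to 10.5). At E11.5 the ratio was 1.17 (1.03 to 1.32).

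The windows before the start sites of Brca1 and Brca2 are shown because both genes were raised in cycling somatic cells (chr11:101551956-101552205 minus strand and chr5:150522371-150522620 plus strand, GRCm38.p6). Capitals mark CCAAT and TGACGT in Brca1, and the reverse complement of TTTNNCGC and TGACGT on both strands in Brca2.
Brca1: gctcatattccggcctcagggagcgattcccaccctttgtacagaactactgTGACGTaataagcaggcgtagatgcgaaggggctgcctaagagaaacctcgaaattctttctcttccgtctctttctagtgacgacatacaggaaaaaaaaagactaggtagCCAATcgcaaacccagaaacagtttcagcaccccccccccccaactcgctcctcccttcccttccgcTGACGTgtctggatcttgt
Brca2: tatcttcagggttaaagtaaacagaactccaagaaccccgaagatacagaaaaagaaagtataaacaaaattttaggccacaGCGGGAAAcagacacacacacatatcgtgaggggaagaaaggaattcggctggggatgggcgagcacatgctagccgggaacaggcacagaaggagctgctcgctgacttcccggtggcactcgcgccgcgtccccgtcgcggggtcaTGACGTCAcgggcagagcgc
The Brca1 window held 1 CCAAT (bases 86 to 82 before the start) and 2 CRE cores (198 to 193 and 19 to 14). The Brca2 window held 1 E2F motif (168 to 161) and 2 CRE cores on opposite strands that overlap (20 to 15 and 18 to 13). The windows of Trip13 and Atr held none of the 4 motifs.

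**Figure D2:**
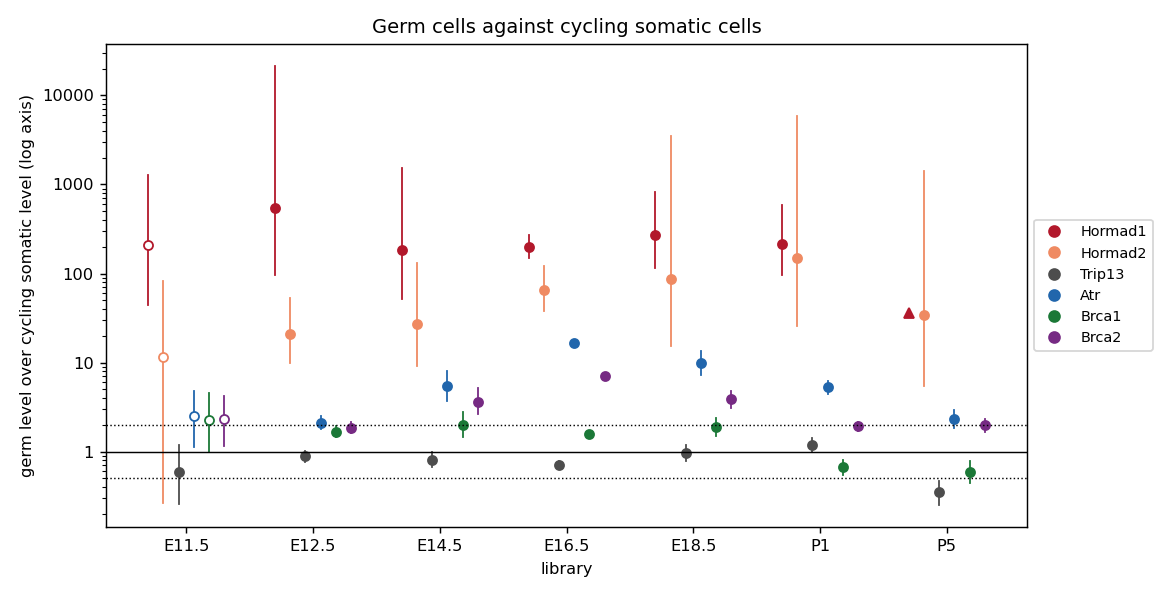
Ratio of the germ level to the cycling somatic level of the same library on a log axis, with exact 95% intervals. Open symbols had too few UMIs to count, the triangle is the lower bound of 36.4 for Hormad1 at P5, and dotted lines mark ratios of 2 and 0.5. Atr and Brca2 rose to 16.48 and 7.02 at E16.5, and Brca1 crossed 1 after E18.5.

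Counted by a fixed rule of size, at least 2-fold among genes with at least 20 UMIs over both classes and at least 5 expected in the smaller, 0 of 1 countable member was higher in germ than cycling somatic cells at E11.5, 3 of 6 at E12.5, 4 of 6 at E14.5, E16.5, and E18.5, and 3 of 6 at P1 and P5. Hormad1, Hormad2, and Atr passed from E12.5 on, and Brca2 joined them from E14.5 to E18.5. Of all countable genes 7.33, 12.6, 23.9, 29.3, 33, 37.7, and 28.3% passed in the libraries from E11.5 to P5. The share of members was therefore above the background from E12.5 to E18.5, while at P1 and P5 it was too near the background to read. In the other direction no member passed before P5, where 1 of 6 (Trip13) did, against 28.8, 37.5, 20.3, 30.6, 20.8, 25.4, and 30.6% of all genes. The median log2 ratio of the countable members was 0.99, 2.14, 3.43, 2.62, 1.67, and 1.10 in the libraries from E12.5 to P5, beside -0.46, 0.15, 0.06, 0.34, 0.46, and 0.03 over all countable genes.

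Between cycling and non-cycling somatic cells, Trip13 and Brca1 were at least 2-fold higher in the cycling class in each of the 6 libraries from E12.5, and Brca2 in 5 of them, with 1.57 at E14.5. In order of age, 0 of 5, 3 of 5, 2 of 5, 3 of 6, 3 of 5, 3 of 4, and 3 of 4 countable members were higher. The share of all countable genes was 2.69, 6, 5.78, 9.32, 9.55, 9.04, and 6.92%. The proportion of members thus exceeded the background in every library from E12.5. In the other direction Hormad1 was at least 2-fold lower in cycling than non-cycling cells at E14.5 (0.361, 0.0431 to 1.34), E16.5 (0.493, 0.353 to 0.675), and E18.5 (0.492, 0.153 to 1.23). These values rest on 2, 44, and 5 cycling UMIs, and the E14.5 and E18.5 intervals include 1. Over all libraries, unnamed clusters held 216 Hormad1 UMIs of non-cycling cells, at 21 CPM (18.3 to 24). In supporting cells of that class it was at 1.34 CPM (1.14 to 1.55). The part of the unnamed clusters was not tested. The share of all genes lower in cycling cells was not counted, so these calls are not read further.

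The E16.5 library held the highest germ level of 5 members, and for Trip13 it was level with E12.5 (a ratio of 1.00, 0.881 to 1.14), so the somatic cells of that library are given beside it. With E16.5 left out, the highest germ level was at E18.5 for Hormad1, Atr, and Brca2, at E14.5 for Hormad2, and at E12.5 for Trip13 and Brca1. From E14.5 to E16.5 the germ level rose 10.1-fold for Atr (9.67 to 10.6) and 10.3-fold for Brca2 (9.83 to 10.8). Non-cycling somatic cells of the same libraries also rose, 4.2-fold for Atr (3.78 to 4.69) and 3.04-fold for Brca2 (2.73 to 3.38). Cycling somatic cells rose 3.31-fold for Atr (2.27 to 5.02) and 5.32-fold for Brca2 (3.87 to 7.51). Germ cells thus rose more than either somatic class for both genes, beyond counting error. Brca1 rose 3.05-fold in germ cells (2.85 to 3.27), 3.89-fold in cycling somatic cells (2.85 to 5.45), and 1.12-fold in non-cycling ones (0.964 to 1.31). Its germ rise was therefore not distinct from that of cycling somatic cells. Hormad1 rose 3.49-fold (3.38 to 3.6), Hormad2 1.53-fold (1.41 to 1.66), and Trip13 1.2-fold (1.11 to 1.31) in germ cells. In non-cycling somatic cells Hormad1 also rose, 2.38-fold (1.89 to 3.02). Hormad2 fell there to 0.573 of its level (0.398 to 0.826) and Trip13 to 0.855 (0.768 to 0.953). In cycling somatic cells the ratio was 1.38 for Trip13 (1.13 to 1.7). It was 3.25 for Hormad1 (0.847 to 27.6) and 0.639 for Hormad2 (0.176 to 3.5), both from few UMIs.

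A rise at E16.5 was common among all genes. Of all countable genes, 39.4% were at least 2-fold higher in E16.5 than E14.5 germ cells and 7.24% at least 10-fold higher, and the median log2 ratio was 0.61. In non-cycling somatic cells 27% were at least 2-fold higher. In germ cells 4 of the 6 members, Hormad1, Atr, Brca1, and Brca2, passed 2-fold, and 2 of them, Atr and Brca2, 10-fold. The cut of 10-fold was not part of the fixed rule of size. It lay inside the intervals of both genes, so the count at 10-fold is not read further. From E16.5 to E18.5 the germ level fell to 0.183 of its value for Atr (0.169 to 0.198), 0.161 for Brca2 (0.148 to 0.176), 0.443 for Brca1 (0.387 to 0.505), 0.418 for Hormad2 (0.342 to 0.506), and 0.616 for Hormad1 (0.585 to 0.647). In the same step 20.4% of all genes fell at least 2-fold in germ cells and 17% in non-cycling somatic cells, where Atr fell to 0.345 and Brca2 to 0.4 of their levels.

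**Figure D3:**
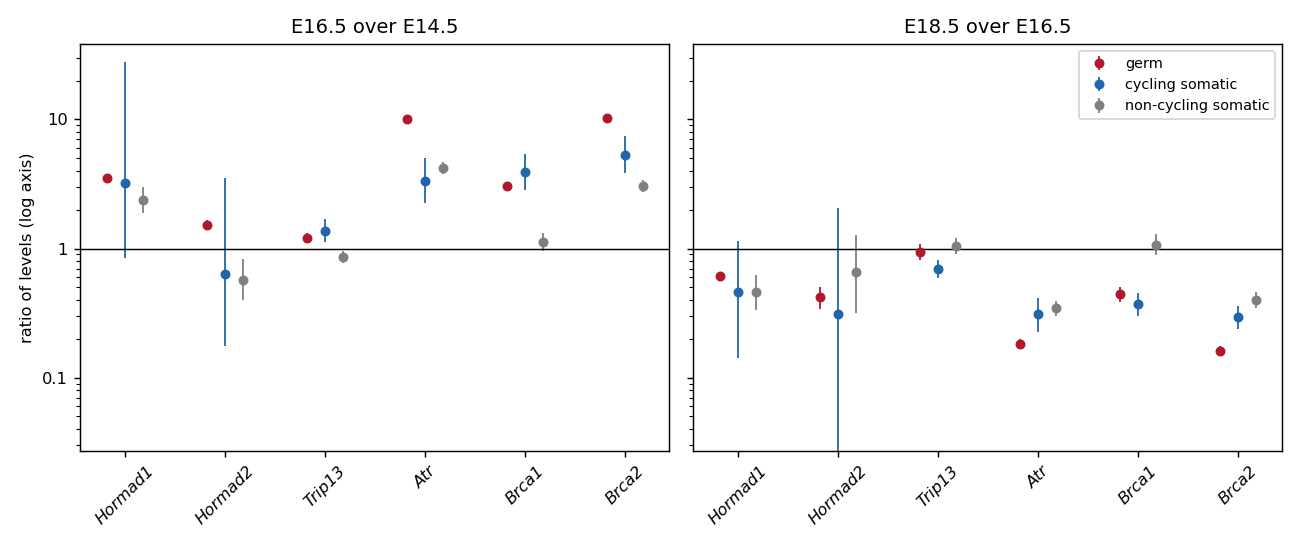
Ratio of each level at E16.5 to E14.5 (left) and at E18.5 to E16.5 (right), on a log axis, by class, with exact 95% intervals. Atr and Brca2 rose about 10-fold in germ cells and between 3.04- and 5.32-fold in somatic classes, then fell in all 3 classes.

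Within E14.5, where germ cells of 1 library spanned a wide range of Sycp3, the members separated along Sycp3. Germ cells were grouped by Sycp3 UMIs per 10000 UMIs of the cell into 760 cells below 1, 971 from 1 to 5, 769 from 5 to 15, and 169 at 15 or more. Hormad1 was at 86, 121, 243, and 361 CPM across these groups, and Hormad2 at 17.5, 27.1, 56, and 68.5 CPM. Atr went from 39.2 to 50.6, 89.1, and 162 CPM. Brca2 followed a like course, from 39.3 to 48, 84.5, and 121 CPM. Thus each of these 4 was already 3.08- to 4.2-fold higher in the top than in the lowest group inside a single library. The share of all genes that differed as much between these groups was not counted. Brca1 rose less, from 27.4 to 30.5, 41.4, and 49.2 CPM (1.8-fold, 1.38 to 2.32), and Trip13 went the other way, from 38.8 to 35.7, 29.7, and 22.6 CPM (0.583-fold, 0.399 to 0.827). At E18.5 these courses were not seen. Between the 207 cells from 5 to 15 and the 190 cells at 15 or more, Trip13 was at 29.8 (23.5 to 37.3) and 49.6 CPM (41.3 to 59.1), Hormad1 at 323 (301 to 345) and 317 CPM (295 to 339), and Atr at 112 (99.1 to 125) and 115 CPM (102 to 129). At E16.5 the 2 highest groups, of 486 cells each, still differed for Hormad1 (450 and 614 CPM) and Atr (497 and 764 CPM). At E14.5 median depth fell along the groups from 14466 to 8964 UMIs per cell, and its part was not tested.

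**Figure D4:**
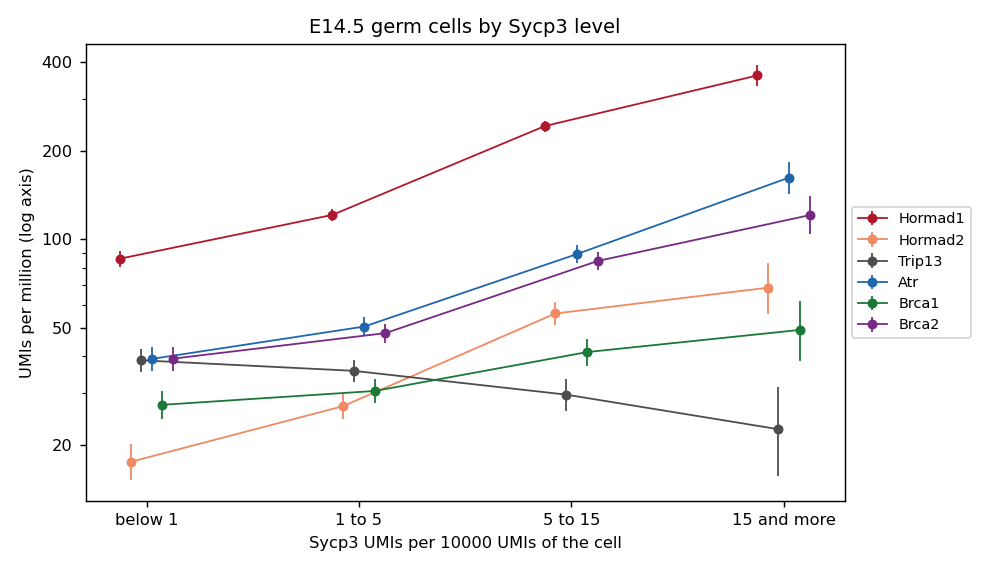
Level of the 6 genes in E14.5 germ cells grouped by Sycp3 UMIs per 10000 UMIs of the cell, on a log axis, with exact Poisson 95% intervals. Hormad1, Hormad2, Atr, and Brca2 rose from group to group, Brca1 rose less, and Trip13 fell from 38.8 to 22.6 CPM.

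Germ cells with at least 2 Mki67 UMIs were compared with those with 0 or 1. Of the E16.5 germ cells, 814 of 1016 had at least 2 Mki67 UMIs, although Ccnb1, a cyclin of mitotic entry, was at 12.3 CPM in germ cells and 144 CPM in cycling somatic cells there. Top2a was at 634 CPM in the E16.5 germ cells with at least 2 Mki67 UMIs and 404 CPM in the others, inside the range of cycling somatic cells over all libraries. The cycling somatic cells of E16.5 held more. Their Top2a level was 1023 CPM in cells leaning to S phase genes and 1377 CPM in cells leaning to G2/M genes. Ccnb1 and Top2a were thus both lower in germ than in cycling somatic cells of E16.5. At E12.5, when germ cells still divide and 232 of 321 had at least 2 Mki67 UMIs, these cells had 1.05 times the Trip13 level of the others (0.781 to 1.43), 1.11 times that of Brca1 (0.843 to 1.47), and 0.707 times that of Hormad1 (0.555 to 0.908). At E14.5 the ratio was 0.868 for Hormad1 (0.795 to 0.946), 0.824 for Atr (0.715 to 0.947), and 0.998 for Brca1 (0.833 to 1.19). For Trip13 the interval included 1 at every age but P5, where cells with at least 2 Mki67 UMIs had 3.05 times the level of the others (1.46 to 7.13). E16.5 germ cells with at least 2 Mki67 UMIs were higher for Brca1 (1.65-fold, 1.39 to 1.96), Brca2 (1.57-fold, 1.47 to 1.69), Atr (1.55-fold, 1.45 to 1.66), and Hormad2 (1.4-fold, 1.12 to 1.77), and their median depth was 27401.5 against 7653.5 UMIs, a difference whose part was not tested.

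Within cycling somatic cells, Brca1 leaned to S phase. Cells were split by whether they held relatively more UMIs of a list of S phase genes or of a list of G2/M genes. Brca1 was 2.25-fold higher in the S group at E12.5 (1.78 to 2.85), 2.14-fold at E16.5 (1.87 to 2.46), and 2.58-fold at P5 (1.91 to 3.51), and above 1 in all 7 libraries, though at E14.5 the interval included 1 (1.29-fold, 0.663 to 2.55). Brca2 gave 1.33-fold (1.09 to 1.61), 1.49-fold (1.33 to 1.66), and 1.58-fold (1.23 to 2.04) at these ages, 1.26-fold at P1 (1.07 to 1.48), and values whose intervals included 1 at E11.5 (1.19), E14.5 (0.704, 0.351 to 1.39), and E18.5 (1.28). For Trip13 the ratio lay between 0.803 (0.721 to 0.895, at E11.5) and 1.24 (0.964 to 1.59, at P5). Atr gave 0.536 (0.281 to 0.993) at E18.5 to 1.15 (0.852 to 1.54) at P1. Between 25 and 188 cells per library had list values within 25% of each other, near the cut.

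Among somatic cell types named from clusters, Trip13 and Brca1 were lower in supporting cells, the class of pregranulosa cells, than in mesenchymal cells of the same library. Supporting cells held 25.4, 11.3, 9.65, 10.7, 6.17, 8.32, and 10.9 CPM of Trip13, and mesenchymal cells 53.9, 30.2, 31.6, 32.2, 24, 18.53, and 19 CPM. The intervals did not overlap at any age. Brca1 was at 2.48 to 6.88 CPM in supporting cells and 8.74 to 23.9 CPM in mesenchymal cells, and the intervals were again apart in each library. The share of cycling cells was 0.14 to 3.01% in supporting and 8.28 to 25% in mesenchymal cells of a library. Pooled over libraries, which mixes ages, Trip13 was at 37.1 CPM (30 to 45.3) in cycling supporting and 67.9 CPM (65.3 to 70.5) in cycling mesenchymal cells. In non-cycling cells these levels were 9.66 and 29.6 CPM. Brca1 was at 27.7 (21.6 to 35) and 34.7 CPM (32.8 to 36.6) in cycling cells and at 5.24 and 10.5 CPM in non-cycling cells. The part of the cycling share was not tested.

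Inside mesenchymal cells the contrast between cycling and non-cycling cells was given for each library. Trip13 was at 72.4, 53.3, 53.5, 79.1, 71, 58.8, and 64.1 CPM in cycling mesenchymal cells and 48.7, 17, 28.3, 14.46, 17.6, 11.4, and 10.6 CPM in the others, with intervals apart in all 7 libraries. The values of all types pooled over libraries did not follow the share of cycling cells, but pooling mixed types with ages. The E11.5 library gave 6484 of 18224 mesenchymal and 547 of 5599 erythroid cells. Non-cycling mesenchymal cells held 48.7 CPM at E11.5 and at most 28.3 CPM later. The part of age in the pooled values was not tested. Erythroid cells, with the largest share (29.8%), had 17.6 CPM of Trip13, against 38.3 CPM in mesenchymal (14.8% cycling), 26.2 CPM in endothelial, and 24.8 CPM in immune cells. Hemoglobin genes were among the leading genes of the erythroid clusters, and their UMIs enter the total behind CPM. The largest erythroid cluster, of 2217 cells, had a median depth of 911 UMIs. The part of both in the erythroid values was not tested. Brca2 was at 16.2 CPM in supporting (15.5 to 16.9) and 16.4 CPM in immune cells (13.9 to 19.1), of which 20.5% were cycling. Atr ran from 9.85 CPM in erythroid to 25.9 CPM in supporting cells. Hormad1 was at most 1.67 CPM and Hormad2 at most 1.22 CPM in each named somatic type.

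The genes whose levels were most like each member's over the 21 points of 7 libraries and 3 classes included meiotic genes for the HORMA-domain members and division genes for Trip13. They were ranked by Pearson correlation of log2(CPM + 10) over 15992 genes. Closest to Hormad1 were 4930447C04Rik (0.99), Tex13b (0.98), and Taf4b (0.97), and to Hormad2 were Boll (0.98), Stag3 (0.97), a meiotic cohesin subunit, and Syngr4 (0.97). Atr was closest to Ythdc2 (0.97), Papolg (0.97), and Cep162 (0.97). Brca2 was closest to Ccp110 (0.96), Fgfr1op2 (0.94), and Mdc1 (0.93), Brca1 to Rad18 (0.95), Brip1 (0.95), and Rad54b (0.95), and Trip13 to Spc25 (0.92), a kinetochore subunit, Eme1 (0.92), and Nek2 (0.90). With 1 CPM added in place of 10, the nearest genes of Hormad2 were Tex13b, Hormad1, and Rnf17, that of Hormad1 was Stk31, and the sets of Atr and Brca2 kept the same 3 genes. The points share libraries and classes, so these values only describe likeness.

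Partners of the members were taken from 4 lists of 43 genes in all, and 40 of them had enough UMIs at E14.5 and 43 at E16.5. Of the 4 factors of break formation that act with HORMAD1, Ccdc36, Mei4, Rec114, and Ankrd31, all 4 were at least 2-fold higher in germ than cycling somatic cells at both ages. Of all countable genes 23.9% were higher at E14.5 and 29.3% at E16.5. Since the list was made of genes of meiotic break formation, this excess was set by its choice and is not read further. Rec114 was at 87.1 against 3.62 CPM at E14.5 (24-fold, 12.6 to 52.6), and Ankrd31 at 327 against 1.9 CPM at E16.5 (172-fold, 122 to 252). At E14.5 Ankrd31 was at 14.8-fold (4.06 to 122). Of 5 other genes of HORMA-domain proteins and their TRIP13 adaptor, 1 was higher at each age (Atg13, of autophagy). Mad2l1bp, the adaptor that links TRIP13 to MAD2, was lower, 0.112-fold at E14.5 (0.0819 to 0.154) and 0.462-fold at E16.5 (0.379 to 0.562). Of all genes 20.3 and 30.6% were at least 2-fold lower at these ages, so the counts of this list were too near the background to read.

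Of the 15 genes around BRCA1, BRCA2, and strand exchange, 10 of 14 countable were higher in germ cells at E14.5 and 11 of 15 at E16.5, against 23.9 and 29.3% of all genes, and none was 2-fold lower. The list includes genes of meiosis such as Dmc1 and Meiob, so the excess was in part set by its choice. Hsf2bp, whose product binds BRCA2, was at 122 against 0.805 CPM at E14.5 (152-fold, 41.9 to 1252) and 99.3 against 0.713 CPM at E16.5 (139-fold, 79.7 to 270). Dmc1, the meiotic recombinase, was 31.7-fold higher at E14.5 (12.4 to 117), and 4930432K21Rik 27-fold (7.44 to 223). At E16.5 Meiob, a single-strand DNA binding factor of meiosis, was 131-fold higher (82.9 to 222), and its partner Spata22 was at 9.81 CPM in germ cells and 0 UMIs in cycling somatic cells, at least 55-fold higher.

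Of the 19 genes of the ATR and ATM checkpoint, 4 of 17 countable were higher and 3 lower at E14.5, close to the 23.9 and 20.3% of all genes. At E16.5 9 of 19 were higher and 4 lower, against 29.3 and 30.6% of all genes. Among those lower in germ cells were Rad9a (0.181-fold at E14.5, 0.11 to 0.306, and 0.132-fold at E16.5, 0.0876 to 0.194), a clamp subunit that loads with ATR, and H2afx, the histone marked at breaks (0.287-fold, 0.267 to 0.308, and 0.294-fold, 0.281 to 0.308). Trp53, the p53 gene, was 0.453-fold at E14.5 (0.403 to 0.511) and 0.144-fold at E16.5 (0.128 to 0.162), and Chek2 was 0.391-fold at E16.5 (0.335 to 0.455). Rad9b, the paralog of Rad9a, was higher at both ages (2.6-fold and 11.9-fold). The paralogs thus lay on opposite sides of 1. Over all 43 genes, 19 of 40 countable were higher and 4 lower at E14.5 and 25 higher and 5 lower at E16.5. In the other libraries the higher counts were 4 of 16 countable at E11.5, 13 of 37 at E12.5, 21 of 41 at E18.5 and P1, and 18 of 39 at P5, beside 7.33, 12.6, 33, 37.7, and 28.3% of all genes in these libraries. These totals include the meiotic genes of the lists, so their distance from the background is not read further.

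**Figure D5:**
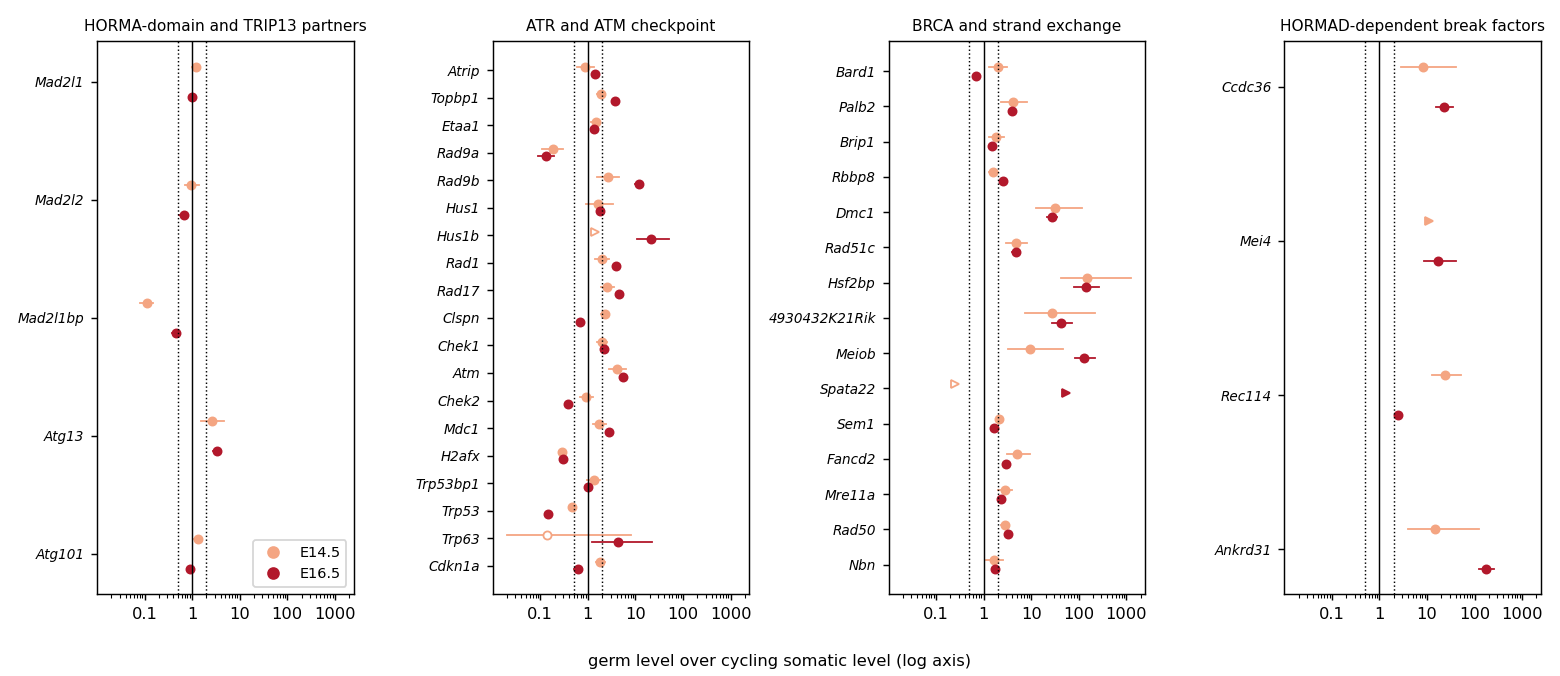
Ratio of germ to cycling somatic level for the 43 partner genes in 4 lists, at E14.5 (light) and E16.5 (dark), on log axes with exact 95% intervals. Triangles are lower bounds against 0 UMIs, open symbols had too few UMIs, and dotted lines mark 0.5 and 2. Break factors and strand exchange genes lay mainly to the right, and Rad9a, H2afx, Trp53, and Mad2l1bp lay to the left at both ages.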

How the data were processed

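Single-cell RNA was measured in 7 libraries by droplet capture. The deposited matrices hold raw UMI counts, 1 row a gene and 1 column a cell. The authors produced them against mm10 with Cell Ranger, version 3.1.0 per the file headers, which also chose the cells. Positions come from the GRCm38 annotation, and promoter windows from RefSeq GRCm38.p6. Groups are the ages in the labels, and the classes follow the rule in the report. The members and lists were chosen with earlier results of these data known.

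Counts were summed over the cells of a class and divided by the class total to give CPM, with exact Poisson 95% intervals. Ratios have exact intervals conditional on the sum of both counts, and the limit of a count of 0 is 3 counts per class. Such intervals cover counting error only, since cells of 1 library are not replicates. Total kept UMIs per library ran from 31960736 to 124390521. Cells of all libraries were clustered (10 principal components, 30 neighbors, Leiden resolution 0.6, 2864 variable genes, without the members, gate, list, and cell-cycle genes), and clusters were named by marker lists. Doublets were left in and were left out in an alternative with Scrublet scores. Named genes were all members, the 3 genes most like each, and the 4 partner genes with the largest and the 4 with the smallest ratio at E14.5 and E16.5. Atg13, Rad9b, Ccdc36, Mei4, the E16.5 value of Mad2l1bp, and the E14.5 value of Ankrd31 fall outside this rule and were chosen after their values were seen. Of the partner lists, 1 gene is not reported here and was left out of their counts. Ratio and interval code was tested on simulated data. Alternatives changed the gates, depth, weighting, cell sets, and the minimum of UMIs. Python 3.11.15, numpy 2.4.6, scipy 1.17.1, pandas 2.3.3, scanpy 1.11.5, igraph 0.11.9, scikit-learn 1.9.0, and matplotlib 3.10.9 were used.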

Additional observations from a re-analysis of the deposited data

Results flagged for a closer look

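Cells with 1 or 2 UMIs of Dazl plus Ddx4 belonged to neither class, and they held more Hormad1 than somatic cells in every library. In order of age from E11.5 to P5 their level was 2.03, 2.79, 10.9, 37, 19.9, 3.75, and 2.31 CPM, against 0.0436, 0.148, 2.15, 4.8, 2.21, 0.446, and 0.0695 CPM in all somatic cells. The levels of the set-aside cells rest on 2, 5, 80, 292, 59, 9, and 2 UMIs. Their intervals were wide at E11.5 (0.246 to 7.35) and P5 (0.28 to 8.34). The gates themselves sort cells by UMIs of germ line genes, and the part of this was not tested. Hormad2 was at 3.04 CPM in such cells at E16.5, against 0.844 CPM in somatic cells. Their values lay between those of the germ and somatic classes, and their makeup was not tested.

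Brca1 was lower in germ than in cycling somatic cells at P1 (0.666) and P5 (0.593) and higher at each earlier age. With only germ cells of at least 2 Mki67 UMIs, the P1 ratio was 0.855 and its interval included 1 (0.621 to 1.15). At E11.5 the ratio of 2.29 came from 8 germ UMIs, and its interval included 1 (0.981 to 4.56). The difference between the ages was not tested, since each age is 1 library.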

How the results depend on the processing

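The 42 ratios of germ to cycling somatic level (6 genes, 7 libraries) were recomputed under 13 alternatives each, with a count of 0 set at the limit of 3 counts. Of these, 32 never crossed 2-fold in either direction, 20 never moved by over 1.5 times, and 39 never crossed 1. Without E11.5 the counts were 30, 20, and 34 of 36. A germ count of 0 gives an upper bound only, which need not show a fall. At E11.5 this held for Hormad2 with a gate of 6 Dazl plus Ddx4 UMIs (0 against 9 UMIs) and without called doublets (0 against 7). It also held there for Brca1 at the common depth (0 against 45). At that depth Hormad1 (0 against 0) and Hormad2 (0 against 2) at E11.5 had too few UMIs for a fold. The same was true of Hormad2 at P1 and P5 and Hormad1 at P5. The counts that never crossed are therefore upper limits. Brca2 at E11.5, from too few UMIs to count, went from 2.32 to 0.611 with a gate of 6 Dazl plus Ddx4 UMIs, which left 3 germ cells. Trip13 crossed 1 at E14.5 (0.814 to 1.03, at least 4 Mki67 UMIs) and E18.5 (0.961 to 1.09, mean over cells). Brca1 at E14.5, at 1.99, lay between 1.3 and 2.15, and Brca2 lay between 1.78 and 2.19 at E12.5. At E16.5 the range was 14.8 to 17.5 for Atr and 54.2 to 438 for Hormad1.

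The count of members at least 2-fold higher at E11.5 was 0, and it was 2 with a germ gate of 2 UMIs, 1 with germ-like clusters as the germ class, 1 without mitochondrial and hemoglobin genes, and 5 without a minimum of UMIs. At E11.5 1 member was lower with the gate of 2 UMIs. At P5 the higher count of 3 became 0 at the common depth of 2000 UMIs, where 62 germ cells left the members under the minimum, and the lower count of 1 became 2 as a mean over cells and 0 at the common depth. The share of all countable genes under these alternatives is not given. These member counts are therefore not read against a background. Of all genes, those at least 2-fold higher at E11.5 numbered 383, and 135 with a gate of 6 UMIs, 790 with germ-like clusters, 32 at the common depth, and 2414 without a minimum. The common depth took the count from 1661 to 954 at E12.5, from 4009 to 2341 at E18.5, from 4971 to 2821 at P1, and from 3583 to 706 at P5. Without a minimum the counts from E12.5 to P5 were 3370, 7213, 7889, 7960, 8307, and 5956, against 1661, 2673, 4627, 4009, 4971, and 3583. No paired analysis was possible because each age is a single library and no test was run.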
